A study of Mus musculus with 14 samples.

Results

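Cells labelled as having had pilocarpine seizures and silencing by a designer receptor were compared with GFP-labelled cells from mice without seizures. The sample titles do not say when CNO (clozapine-N-oxide), the ligand of the receptor, was given relative to the seizures. The comparison took the count columns named Hm4digfp1, hm4Digfp2 and hm4Digfp3 against CAGSC1, CAGSC2 and CAGSC3, matched to the samples by library name. These are 6 of the 14 libraries of the series. All 43346 genes of the table were considered, and 18676 had enough counts to be tested. The DREADD Pilo group (3 libraries) came from wild-type C57BL/6 mice whose sorted cells carried the receptor with GFP and that received pilocarpine and clozapine-N-oxide (CNO). The CAG-GFP Sham group (3 libraries) came from wild-type C57BL/6 mice whose sorted cells carried GFP from the CAG promoter and that received the sham procedure and CNO. The control was therefore not free of treatment. Seizures and receptor differ together between the groups, so their parts cannot be told apart here. The other 8 libraries, 4 of CAG-GFP Pilo (GFP, pilocarpine, CNO) and 4 of DREADD Sham (receptor, sham procedure, CNO), entered the same fit and are cited where a result turns on them.

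All samples were hippocampal cells at day 14, sorted as live GFP-positive cells that the submitters call adult-born granule cells, with 800 to 1000 cells per sample. Pilocarpine was given at 300 mg/kg after scopolamine and terbutaline at 2 mg/kg each, and diazepam at 10 mg/kg ended the seizures after 3 hours. The promoter of the receptor, the vector, the content of the sham procedure, the age of the mice and the event from which day 14 was counted are not stated in the sources at hand. Whether each library had its own animal is not said in the labels, so the p-values speak only of the spread between these libraries, which may be technical.

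Adult-born granule cells arise from radial glia-like stem cells of the dentate gyrus, pass through a neuroblast stage and join the granule cell layer. The stem cells share many genes with astrocytes, among them those for glutamate uptake, fatty acid binding and the glycolytic aldolase Aldoc. Pilocarpine is a muscarinic agonist that sets off prolonged seizures, after which new granule cells are known to be produced and placed abnormally. The receptor named in the library names, hM4Di, couples to inhibitory G proteins and opens potassium channels of the GIRK family when CNO binds. The series title names Rrm2, a subunit of ribonucleotide reductase, and Timp3, an inhibitor of metalloproteinases, as regulators of neurogenesis and migration after seizures.

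The libraries of the compared groups differed in more than their labels. Total counts ran from 12562178 to 18368478 in DREADD Pilo and from 27965232 to 28432365 in CAG-GFP Sham. Pseudogenes took 4.33% to 7.82% of counts in DREADD Pilo and 0.117% to 0.139% in CAG-GFP Sham. The 14 libraries fall apart by this share into set 1, under 1%, and set 2. DREADD Pilo lies wholly in set 2 and CAG-GFP Sham wholly in set 1, while CAG-GFP Pilo and DREADD Sham each have 2 libraries in either set. The spelling of the library names follows the same division. Set and group therefore cannot be told apart within the 6 libraries. A fit with the set as a covariate leans on the other 8 libraries for the size of the set difference. DREADD Pilo 3 stood apart from the other DREADD Pilo libraries. Its log2 CPM values correlated with theirs at r = 0.594 and 0.595, while DREADD Pilo 1 and 2 correlated at 0.773 and the CAG-GFP Sham libraries at 0.863 to 0.868. Mitochondrial genes took 25.8% of the counts of DREADD Pilo 3, and 2.58% and 4.50% in DREADD Pilo 1 and 2, against 11.6% to 12.7% in CAG-GFP Sham.

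The label of granule cells was checked against marker genes, with levels given as CPM, counts scaled to library size after TMM normalisation. Prox1, the transcription factor that specifies granule cells, had 53, 80.8 and 0 CPM in DREADD Pilo, against 12.7, 5.63 and 14.6 CPM in CAG-GFP Sham. Dcx, the microtubule protein of migrating neuroblasts, had 30.3, 92.2 and 0 CPM in DREADD Pilo, against 0, 6.57 and 1.68 CPM in CAG-GFP Sham. Neurod1, which drives granule cell differentiation, had 28.2, 26.8 and 0 CPM in DREADD Pilo, against 0.796, 0.938 and 0.576 CPM in CAG-GFP Sham. All 3 genes were at 0 in DREADD Pilo 3 and low in every CAG-GFP Sham library, and none passed the test between the groups. Calb1, a mature granule cell marker, went the other way, lower without overlap, and did not pass either. It had 24.9, 9.62 and 11.1 CPM in DREADD Pilo, against 67.8, 51.0 and 64.5 CPM in CAG-GFP Sham. Of the 25 mature granule cell markers, 20 had positive and 5 negative fold changes.

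Markers of some other cell types summed above the granule cell markers and those of others below, in sums that differed between the libraries. The lists differ in size and in the level of their genes, so the sums are only set side by side. The 12 interneuron markers lay below, with 3.68 to 69.1 CPM in DREADD Pilo and 103 to 211 CPM in CAG-GFP Sham. The 25 mature granule cell markers summed to 427 to 847 CPM in DREADD Pilo and 228 to 251 CPM in CAG-GFP Sham. The 18 astrocyte markers summed to 1612 to 4034 CPM in DREADD Pilo, against 33789 to 35528 CPM in CAG-GFP Sham. The 16 microglia markers reached 34979, 16926 and 233 CPM in DREADD Pilo, against 5437 to 5727 CPM in CAG-GFP Sham. Microglia and oligodendrocyte markers thus led in DREADD Pilo 1 and 2, and astrocyte markers in CAG-GFP Sham. In DREADD Pilo 3 the largest sum was that of the 12 choroid plexus markers, 167082 CPM, against 943 and 7.10 CPM in DREADD Pilo 1 and 2 and 2150 to 2806 CPM in CAG-GFP Sham. Transthyretin (Ttr), the main secreted protein of the choroid plexus, alone took 10.7% of its counts. In such bulk samples, fewer cells of a type and less RNA per cell cannot be told apart.

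**Figure D1:**
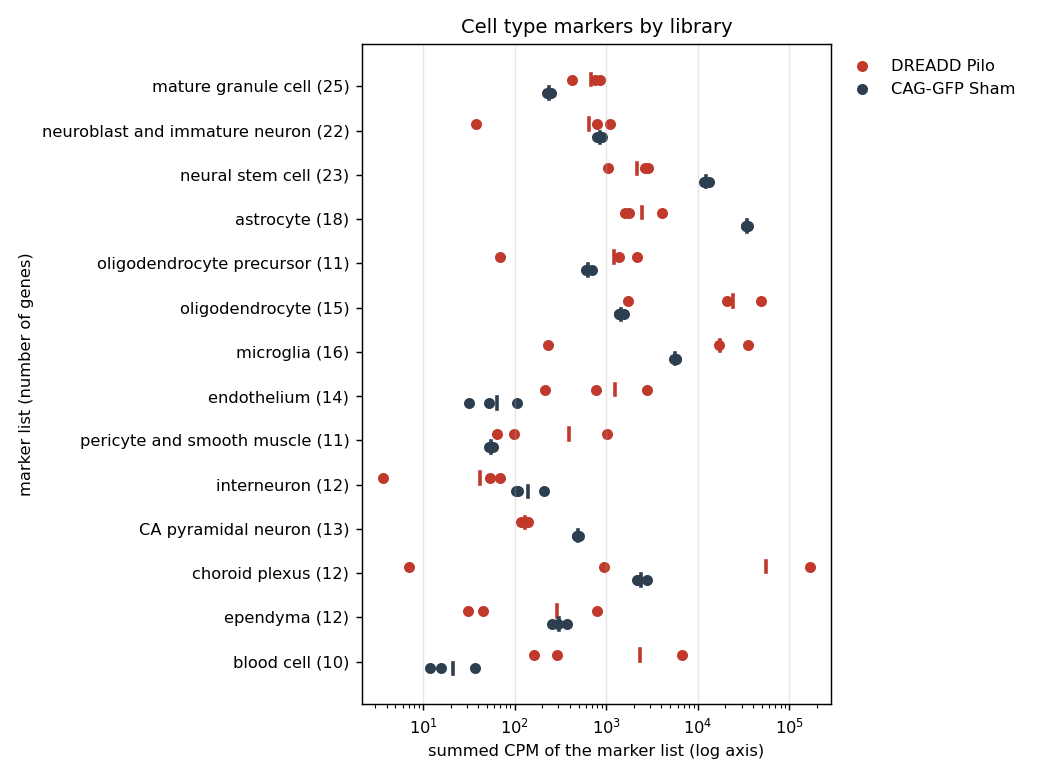
Summed CPM of 14 cell type marker lists (log axis, number of genes in brackets) in the 3 DREADD Pilo libraries (red) and the 3 CAG-GFP Sham libraries (dark), with a bar at each group mean. The astrocyte sums lie at 1612 to 4034 CPM in DREADD Pilo and 33789 to 35528 CPM in CAG-GFP Sham, and the choroid plexus sum of 167082 CPM belongs to DREADD Pilo 3.

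In DREADD Pilo, 42 genes differed from CAG-GFP Sham, which is 0.225% of the genes tested (edgeR quasi-likelihood F test, Benjamini-Hochberg adjusted p under 0.05). Of these, 12 were higher (0.0643%) and 30 were lower (0.161%) in DREADD Pilo. The lower genes included glutathione transferases, metallothioneins and genes of astrocytes and radial glia. The higher genes held oligodendrocyte precursor genes and the inducible Hsp70 genes. By annotation 38 were protein-coding, 3 antisense and 1 a long intergenic RNA. At an unadjusted p under 0.05 there were 3579 genes (19.2%). The fold changes of all genes tested leaned to DREADD Pilo: 63.5% were positive, and their median was 0.66 on the log2 scale (0.81 with the size factors of RLE), against which the list medians are read.

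The number of calls changed with the library left out, for a cause that was not tested. Without DREADD Pilo 1 there were 9 calls, without DREADD Pilo 2 there were 10, and without DREADD Pilo 3 there were 152 (66 higher, 0.332%, and 86 lower, 0.432%). Without CAG-GFP Sham 1, 2 or 3 there were 4 calls each. Gstm1, Scg3, Mdk and Pantr1, all lower in DREADD Pilo, kept the call whichever of the 6 libraries was left out, and the other 38 lost it at least once. The tool also set the number: DESeq2 called 2670 genes, or 14.3% (1850 higher, 820 lower), and limma voom 1005, or 5.38% (551 higher, 454 lower). A fit of only the 6 libraries called 2407 of 15657 genes, or 15.4% (1308 higher, 8.35%, and 1099 lower, 7.02%), of which 729 were pseudogenes. With the library set as a covariate 40 genes were called, or 0.214% (4 higher, 0.0214%, and 36 lower, 0.193%), and 24 of the 42 were among them, 4 higher and 20 lower. The 4 higher genes that kept the call there were Hspa1b, Gm20481, Neu4 and Dusp26. The median of all genes was 0.61 in that fit. The sign of all 42 was the same in every alternative that tested them.

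**Figure D2:**
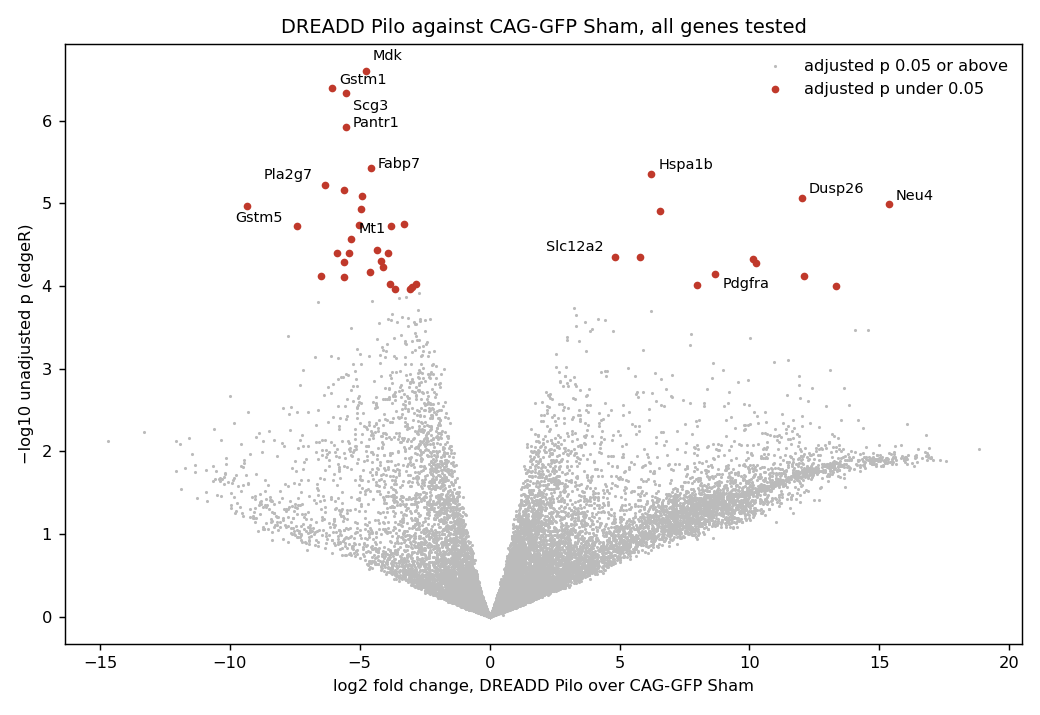
Log2 fold change of DREADD Pilo over CAG-GFP Sham (horizontal) against −log10 of the unadjusted p (vertical) for the 18676 genes tested. Red points are the 42 genes past the adjusted threshold, 30 to the left and 12 to the right. The arm of grey points at large positive fold changes holds genes with few or no counts in CAG-GFP Sham.

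Glutathione transferases of the mu class, which join glutathione to reactive compounds, were lower in DREADD Pilo. Gstm1 (chr3:108012255-108017973, minus strand, GRCm38) had 58.4, 183 and 157 CPM in DREADD Pilo, against 8919, 8367 and 9495 CPM in CAG-GFP Sham. Its log2 fold change was -6.07 ± 0.70 (SE, adjusted p = 0.00291). The groups did not overlap. Gstm5, a neighbour on chromosome 3, had 20.1, 76.4 and 137 CPM in DREADD Pilo, against 12911, 12343 and 14884 CPM in CAG-GFP Sham (log2 fold change -7.43 ± 1.20 SE, adjusted p = 0.0194). The 4933431E20Rik transcript overlaps Gstm5 and Eps8l3 and was lower as well, by -5.62 ± 0.83 (SE) on the log2 scale. Mu-class genes are close copies of each other, and how reads with several matches were counted is not given, so their levels are uncertain. Of the 22 metallothionein and glutathione genes tested, 4 were called lower, beside 0.161% of all genes, and none higher, beside 0.0643%. Their median log2 fold change was -3.35, with 17 negative and 4 positive. Of these genes 14 lay lower and 2 higher without overlap, where 14.9% and 19.8% of all genes did so.

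The metallothioneins Mt1 and Mt2, small proteins that bind zinc and copper, were the other called members of that list. Mt1 had 99.2, 620 and 589 CPM in DREADD Pilo, against 16938, 15996 and 19359 CPM in CAG-GFP Sham (log2 fold change -5.32 ± 0.89 SE, adjusted p = 0.0265). Mt2 had 15.3, 109 and 123 CPM in DREADD Pilo, against 3423, 3089 and 4115 CPM in CAG-GFP Sham (log2 fold change -5.43 ± 0.94 SE, adjusted p = 0.0325). Neither gene's groups overlapped, and DREADD Pilo 1 was the lowest library for both. Mt3, the brain form, had 12, 115 and 590 CPM in DREADD Pilo, against 4738, 4502 and 5778 CPM in CAG-GFP Sham, and did not pass (adjusted p = 0.152). Prdx6, a peroxiredoxin, had 301, 999 and 664 CPM in DREADD Pilo, against 4940, 5272 and 5569 CPM in CAG-GFP Sham, and did not pass either (adjusted p = 0.107). With the library set as a covariate the list median was -0.96, and 2 of the 22 members were called, both lower (0.193% of all genes were called lower there). These 2 were Gstm1 and Gstm5. Mt1 (adjusted p = 0.0613) and Mt2 (adjusted p = 0.0645) did not pass in that fit.

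Astrocyte genes were lower in DREADD Pilo. All 18 astrocyte markers tested had negative fold changes, 3 of them passed (0.161% of all genes were called lower), and the list median was -3.79. Cldn10, a tight junction claudin, had 14.5, 70.2 and 35.6 CPM in DREADD Pilo, against 3659, 3357 and 3743 CPM in CAG-GFP Sham (log2 fold change -6.48 ± 1.19 SE, adjusted p = 0.0414). Acsbg1, an acyl-CoA synthetase, had 15.2, 36.5 and 15.3 CPM in DREADD Pilo, against 639, 698 and 856 CPM in CAG-GFP Sham (log2 fold change -5.03 ± 0.81 SE, adjusted p = 0.0194). Aldoc had 204, 556 and 258 CPM in DREADD Pilo, against 8201, 8112 and 8732 CPM in CAG-GFP Sham (log2 fold change -4.62 ± 0.84 SE, adjusted p = 0.0404). The libraries of the groups did not overlap for any of these 3 genes, nor for 13 further markers of the list (14.9% of all genes tested lay lower without overlap). Among the markers that did not pass, the glutamate transporter Slc1a2 had 340, 805 and 427 CPM in DREADD Pilo, against 8068, 8277 and 8352 CPM in CAG-GFP Sham (adjusted p = 0.106). Gfap, the intermediate filament of astrocytes, had 155, 753 and 157 CPM in DREADD Pilo, against 709, 589 and 699 CPM in CAG-GFP Sham, so its groups overlapped. The median of the list was -5.77 with the library set as a covariate (6 members lower, beside 0.193% of all genes). In the fit of only the 6 libraries 15 of the 18 were lower, beside 7.02% of all genes.

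Radial glia and stem cell genes were less uniform. Fabp7, a carrier of fatty acids in radial glia and astrocytes, had 107, 125 and 41.2 CPM in DREADD Pilo, against 2001, 2069 and 2479 CPM in CAG-GFP Sham (log2 fold change -4.58 ± 0.64 SE, adjusted p = 0.0139). It was the 1 called member of 22 neural stem cell genes tested (0.161% of all genes were called lower), whose median was -0.75. Of the 22 genes, 10 lay lower and 2 higher without overlap, where 14.9% and 19.8% of all genes did so. With the library set as a covariate the median was -2.02 and 3 members were called lower, beside 0.193% of all genes. Hopx, a homeodomain-only protein that marks quiescent stem cells, had 44.1, 124 and 452 CPM in DREADD Pilo, against 1457, 1480 and 1524 CPM in CAG-GFP Sham, and did not pass (adjusted p = 0.211). Its antisense partner Hopxos had 6.51, 12.1 and 41.0 CPM in DREADD Pilo, against 914, 994 and 969 CPM in CAG-GFP Sham, and did (log2 fold change -5.59 ± 0.99 SE, adjusted p = 0.0338). Hopxos did not pass with the library set as a covariate (adjusted p = 0.135). The strand setting of the counting is not given, so reads of the overlapping pair of Hopx and Hopxos cannot be told apart. Pantr1 (chr1:42590782-42694842, minus strand), a long intergenic RNA next to the neural factor gene Pou3f3, had 37.6, 48.4 and 42.6 CPM in DREADD Pilo, against 2011, 1722 and 2224 CPM in CAG-GFP Sham (log2 fold change -5.53 ± 0.70 SE, adjusted p = 0.00559). The DREADD Pilo libraries lay close together for this gene.

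Further lower genes encode proteins that are secreted or act in secretory vesicles, for which no list was drawn up. Scg3 (chr9:75643189-75684056, minus strand), a granin that sorts cargo into dense-core vesicles, had 63.3, 85.9 and 44.3 CPM in DREADD Pilo, against 2982, 2958 and 2953 CPM in CAG-GFP Sham (log2 fold change -5.52 ± 0.65 SE, adjusted p = 0.00291). Cpe, the carboxypeptidase that trims prohormones, had 408, 703 and 653 CPM in DREADD Pilo, against 17442, 17196 and 18763 CPM in CAG-GFP Sham (log2 fold change -4.92 ± 0.74 SE, adjusted p = 0.0162). Mdk (chr2:91929805-91932297, minus strand), the heparin-binding growth factor midkine, had 11.7, 14 and 16.8 CPM in DREADD Pilo, against 404, 385 and 370 CPM in CAG-GFP Sham (log2 fold change -4.77 ± 0.53 SE, adjusted p = 0.00291). The groups did not overlap for any of the 3. Sparcl1, a matricellular protein that astrocytes secrete, had 230, 1108 and 271 CPM in DREADD Pilo, against 9473, 9668 and 8830 CPM in CAG-GFP Sham (log2 fold change -4.12 ± 0.74 SE, adjusted p = 0.0371). Cst3, the protease inhibitor cystatin C, had the highest level of the called genes, with 14465, 14069 and 6911 CPM in DREADD Pilo, against 85347, 88488 and 105121 CPM in CAG-GFP Sham (log2 fold change -2.98 ± 0.57 SE, adjusted p = 0.0480). Cpe, Mdk and Cst3 fall outside the rule for named genes and were chosen after their values were seen.

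Lipid genes and single genes of other function made up the rest of the lower genes. Pla2g7, which breaks down platelet-activating factor, had 15.4, 60.7 and 27.9 CPM in DREADD Pilo, against 2660, 3212 and 2526 CPM in CAG-GFP Sham (log2 fold change -6.34 ± 0.92 SE, adjusted p = 0.0158). The antisense 1700071M16Rik lies within the bounds of Pla2g7 and had under 1 CPM in each DREADD Pilo library, against 439, 586 and 398 CPM in CAG-GFP Sham. Nkain4, which interacts with the sodium pump, had 6.51, 17.0 and 10.9 CPM in DREADD Pilo, against 676, 620 and 735 CPM in CAG-GFP Sham (log2 fold change -5.88 ± 1.02 SE, adjusted p = 0.0325). Mrps33, a protein of the mitochondrial ribosome, had 15.8, 23.0 and 31.2 CPM in DREADD Pilo, against 1070, 1036 and 1282 CPM in CAG-GFP Sham (log2 fold change -5.60 ± 1.03 SE, adjusted p = 0.0414). The groups did not overlap for any of these genes. The remaining 10 lower genes, chosen for mention after their values were seen, had log2 fold changes between -4.94 and -2.84. They were Lcat (cholesterol esterification), Acsl6 (an acyl-CoA synthetase), F3 (tissue factor), Il18 (a cytokine), Tspan7 (a tetraspanin), Ttyh1 (a membrane protein of the tweety family), Pmm1 (a phosphomannomutase), Glul (glutamine synthetase), Scrg1 and Mamdc4.

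The genes of oligodendrocyte precursors, the dividing glia that give rise to myelinating cells, held 3 of the 12 higher genes. Pdgfra (chr5:75152292-75198215, plus strand), the receptor for platelet-derived growth factor that defines these cells, had 202, 182 and 41.5 CPM in DREADD Pilo, against 0.398, 0.0494 and 0.576 CPM in CAG-GFP Sham (log2 fold change 8.68 ± 1.59 SE, adjusted p = 0.0414). Neu4, a sialidase, had 485, 175 and 4.24 CPM in DREADD Pilo and no count in CAG-GFP Sham (adjusted p = 0.0166). Its DREADD Pilo mean was at least 4389-fold higher with the CAG-GFP Sham group set to 3 counts, a bound that does not hold for DREADD Pilo 3 alone. Cspg4, the NG2 proteoglycan of precursors and pericytes, had 48.3, 115 and 1.89 CPM in DREADD Pilo and no count in CAG-GFP Sham, at least 1090-fold higher on the same floor (adjusted p = 0.0480). DREADD Pilo 3 was the lowest library for all 3. Without it the bounds were 6541-fold for Neu4 and 1617-fold for Cspg4. Sox10, a master factor of the lineage, had 188, 95.2 and 0 CPM in DREADD Pilo, against 0.0497, 0 and 0.210 CPM in CAG-GFP Sham, and did not pass (adjusted p = 0.0927). Of 11 precursor genes tested, 3 were called higher, beside 0.0643% of all genes, and the median was 4.56. Their summed level was 2170, 1368 and 68.4 CPM in DREADD Pilo, against 599 to 691 CPM in CAG-GFP Sham. The sums thus overlapped, with DREADD Pilo 3 below every CAG-GFP Sham library. With the library set as a covariate 1 was called higher, Neu4, beside 0.0214% of all genes, and the median was 4.50. Pdgfra (adjusted p = 0.102) and Cspg4 (adjusted p = 0.135) did not pass in that fit. Cspg5, with 87.2, 83.0 and 11.3 CPM in DREADD Pilo, against 341, 287 and 337 CPM in CAG-GFP Sham, had a negative fold change and did not pass.

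Myelin genes of mature oligodendrocytes summed far higher in DREADD Pilo 1 and 2 than in CAG-GFP Sham and gave no call. All 15 tested had positive fold changes, with a median of 4.29. Mbp, myelin basic protein, had 5004, 8803 and 156 CPM in DREADD Pilo, against 60.8, 47.7 and 59.5 CPM in CAG-GFP Sham (log2 fold change 6.38 ± 1.58 SE, adjusted p = 0.132). Without DREADD Pilo 3, 7 of the 15 were higher, beside 0.332% of all genes. The summed level of the list was 20990, 49189 and 1731 CPM in DREADD Pilo, against 1366 to 1544 CPM in CAG-GFP Sham. It ran from 1872 to 40295 CPM in CAG-GFP Pilo and from 22194 to 43121 CPM in DREADD Sham, so high sums were not particular to DREADD Pilo. The part of cell mixture in these results was not tested.

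The inducible Hsp70 genes Hspa1a and Hspa1b, chaperones that cells make under proteotoxic stress, were higher in DREADD Pilo. The 250 bases before their RefSeq starts (GRCm38.p6) are shown because the genes moved together and are near-identical copies. Of the 250 bases, 247 are identical. Capitals mark the single match to the paired heat shock half-sites GAANNTTC or TTCNNGAA, searched on both strands and found in 12.8% of 32851 promoter windows of this length.
Hspa1a, chr17:34972157-34972406, minus strand: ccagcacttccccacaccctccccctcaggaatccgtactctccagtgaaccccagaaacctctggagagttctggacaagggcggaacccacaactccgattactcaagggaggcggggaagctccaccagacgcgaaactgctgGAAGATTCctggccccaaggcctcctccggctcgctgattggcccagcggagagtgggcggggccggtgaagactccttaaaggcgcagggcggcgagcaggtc
Hspa1b, chr17:34959239-34959488, minus strand: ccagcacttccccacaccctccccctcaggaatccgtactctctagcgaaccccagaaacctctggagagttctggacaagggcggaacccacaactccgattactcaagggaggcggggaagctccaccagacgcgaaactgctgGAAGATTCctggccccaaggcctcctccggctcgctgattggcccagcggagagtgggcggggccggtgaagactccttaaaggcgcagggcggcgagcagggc

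Hspa1b had 1106, 413 and 159 CPM in DREADD Pilo, against 10.0, 6.71 and 5.76 CPM in CAG-GFP Sham (log2 fold change 6.22 ± 0.88 SE, adjusted p = 0.0139). Hspa1a had 793, 390 and 60.4 CPM in DREADD Pilo, against 3.03, 9.78 and 9.96 CPM in CAG-GFP Sham (log2 fold change 5.77 ± 1.01 SE, adjusted p = 0.0338). The groups did not overlap, and in both genes the levels were highest in DREADD Pilo 1 and lowest in DREADD Pilo 3. Reads could be shared between these copies, and Gm20481, antisense to Hspa1a, was higher with them (log2 fold change 6.54 ± 1.02 SE, adjusted p = 0.0166). The Hsp70 pair were the 2 called members of 15 heat shock genes tested (0.0643% of all genes were called higher), with a list median of 0.68. Hspa1b also passed with the library set as a covariate, and Hspa1a did not (adjusted p = 0.0567). Their co-chaperone Dnajb1 had 480, 261 and 213 CPM in DREADD Pilo, against 95.6, 80.1 and 56.3 CPM in CAG-GFP Sham, and did not pass (adjusted p = 0.208). The constitutive Hspa8 had 104, 227 and 194 CPM in DREADD Pilo, against 2460, 2206 and 2420 CPM in CAG-GFP Sham, and did not pass (adjusted p = 0.215).

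Slc12a2 (chr18:57878678-57946821, plus strand), the chloride importer NKCC1, which sets chloride in immature neurons and is also abundant in choroid plexus, had 140, 393 and 920 CPM in DREADD Pilo, against 8.56, 16.2 and 26.4 CPM in CAG-GFP Sham (log2 fold change 4.83 ± 0.84 SE, adjusted p = 0.0338). It was the only called member of 19 genes for GABA receptors and chloride transport tested, whose median was -0.54. Of all genes, 0.0643% were called higher. Slc12a2 did not pass with the library set as a covariate (log2 fold change 3.92, adjusted p = 0.116), no member was called and the median turned to 0.67. Slc12a5, the chloride exporter KCC2 of mature neurons, had 7.01, 9.56 and 1.34 CPM in DREADD Pilo, against 8.85, 20.8 and 8.91 CPM in CAG-GFP Sham, with overlapping groups. The highest Slc12a2 level was in DREADD Pilo 3, the library with the choroid plexus sum given above. Without DREADD Pilo 3 the log2 fold change of Slc12a2 was 3.905, and it passed (adjusted p = 0.0382). It did not pass without DREADD Pilo 2 (adjusted p = 0.08), nor without any single CAG-GFP Sham library. The part of choroid plexus cells in the result was not tested.

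Ackr3, an atypical receptor that clears the chemokine CXCL12 and steers migrating neurons, had 35.6, 120 and 39 CPM in DREADD Pilo, against 0, 0.592 and 0.157 CPM in CAG-GFP Sham (log2 fold change 7.99 ± 1.51 SE, adjusted p = 0.0479). It was the 1 called member of 31 migration and axon guidance genes tested (0.0643% of all genes were called higher), whose median was 1.18. Ackr3 did not pass with the library set as a covariate (adjusted p = 0.145). Mmp2, the metalloproteinase gelatinase A, had 31.3, 13.3 and 25.5 CPM in DREADD Pilo and no count in CAG-GFP Sham, at least 463-fold higher with that group set to 3 counts (adjusted p = 0.0414). Unlike the precursor genes, these 2 were not lowest in DREADD Pilo 3. Of 35 extracellular matrix and metalloproteinase genes tested, Mmp2 was called higher and Sparcl1 lower, beside 0.0643% and 0.161% of all genes. The list median was 1.09. Neither Mmp2 nor Sparcl1 passed with the library set as a covariate, where the median was -0.088.

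Dusp26, a phosphatase that acts on MAP kinases, had 118, 153 and 2.90 CPM in DREADD Pilo and a single count in all of CAG-GFP Sham (ratio 6410, 95% counting interval 1150 to 253246, adjusted p = 0.0162). Lims2, an adaptor at integrin adhesions, had 657, 237 and 4.35 CPM in DREADD Pilo, against 0, 0.346 and 0.367 CPM in CAG-GFP Sham (log2 fold change 10.27 ± 1.83 SE, adjusted p = 0.0338). Pxdc1 had 107, 18.3 and 3.57 CPM in DREADD Pilo and 2 counts in all of CAG-GFP Sham (ratio 1620, 95% counting interval 448 to 13383, adjusted p = 0.0338). In each of these genes DREADD Pilo 3 was the lowest of its group but still above every CAG-GFP Sham library. Counting error is all that such intervals and bounds cover, because reads were not tied to single molecules by identifiers.

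**Figure D3:**
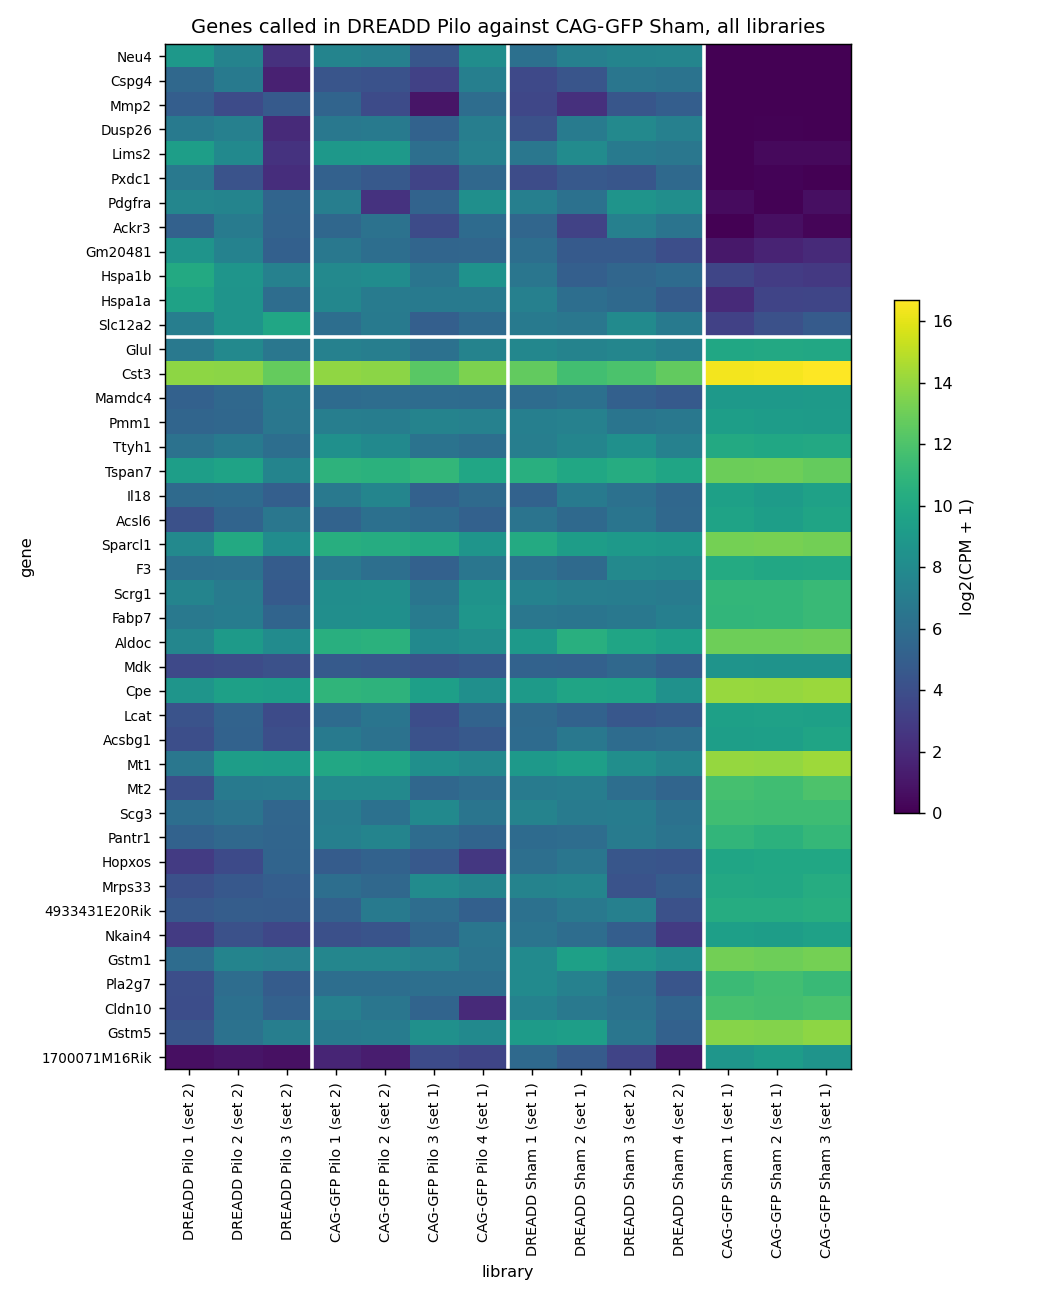
Log2(CPM + 1) of the 42 called genes in all 14 libraries, grouped as DREADD Pilo, CAG-GFP Pilo, DREADD Sham and CAG-GFP Sham, with the library set in brackets. The upper 12 genes are dark in the CAG-GFP Sham columns and the lower 30 are bright there. The range of DREADD Pilo overlaps that of CAG-GFP Pilo in 34 rows and that of DREADD Sham in 33. The share of all genes tested with such overlap was not computed.

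The same genes were then read in the other groups, to see where DREADD Pilo also differed from seizures without the receptor and from the receptor without seizures. None of the 18676 genes (0%) passed the edgeR test between DREADD Pilo and CAG-GFP Pilo, where 1001 had an unadjusted p under 0.05, DESeq2 called 167 and limma voom 0. None (0%) passed between DREADD Pilo and DREADD Sham, where 967 had an unadjusted p under 0.05, DESeq2 called 153 and limma voom 0. Within library set 2 both counts were again 0 by edgeR, with 985 and 1275 genes at an unadjusted p under 0.05. For 34 of the 42 genes the range of DREADD Pilo overlapped that of CAG-GFP Pilo, and for 33 that of DREADD Sham. The share of all genes tested with such overlap was not computed, so these counts do not show a likeness particular to the 42. Gstm1 had 58.4 to 183 CPM in DREADD Pilo and 86.0 to 203 CPM in CAG-GFP Pilo. In DREADD Sham it had 248 to 707 CPM, against 8367 to 9495 CPM in CAG-GFP Sham. Mt1 had 99.2 to 620 CPM in DREADD Pilo, 215 to 1012 CPM in CAG-GFP Pilo and 188 to 686 CPM in DREADD Sham, against 15996 to 19359 CPM in CAG-GFP Sham. Both genes were therefore low in all 11 libraries outside CAG-GFP Sham, those of set 1 included.

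Among the higher genes, Pdgfra had 41.5 to 202 CPM in DREADD Pilo, 4.42 to 322 CPM in CAG-GFP Pilo and 74.2 to 398 CPM in DREADD Sham, against under 1 CPM in CAG-GFP Sham. Hspa1b had 159 to 1106 CPM in DREADD Pilo, 90.4 to 365 CPM in CAG-GFP Pilo and 32.2 to 91.6 CPM in DREADD Sham, against 5.76 to 10.0 CPM in CAG-GFP Sham. Its DREADD Pilo libraries overlapped those of CAG-GFP Pilo and lay above those of DREADD Sham, with a log2 fold change over DREADD Sham of 3.32 ± 0.69 (SE) that did not pass (adjusted p = 0.954). Slc12a2 had 140 to 920 CPM in DREADD Pilo, 31.5 to 111 CPM in CAG-GFP Pilo and 98.7 to 251 CPM in DREADD Sham, and its log2 fold change over CAG-GFP Pilo of 2.89 ± 0.69 (SE) did not pass (adjusted p = 0.882). The 3 comparisons with CAG-GFP Sham share its libraries, so their values are only set side by side. CAG-GFP Pilo against CAG-GFP Sham gave 45 calls, 0.241% (13 higher, 32 lower), and DREADD Sham against CAG-GFP Sham gave 56, 0.3% (10 higher, 46 lower). For Gstm1 the log2 fold change against CAG-GFP Sham was -6.07 ± 0.70 in DREADD Pilo, -5.80 ± 0.61 in CAG-GFP Pilo and -4.44 ± 0.58 in DREADD Sham (SE). For Hspa1b it was 6.22 ± 0.88 in DREADD Pilo, 5.003 ± 0.82 in CAG-GFP Pilo and 2.90 ± 0.73 in DREADD Sham (SE).

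The functional lists that bear on silencing and activity gave no calls. Of 25 genes tested for Gi signalling and GIRK channels, the route by which hM4Di acts, none passed and the median was 0.24. Gnai3, an inhibitory G protein subunit, had 158, 202 and 135 CPM in DREADD Pilo, against 32.3, 40.7 and 56.4 CPM in CAG-GFP Sham (adjusted p = 0.208). The GIRK subunit gene Kcnj6 had at most 6.98 CPM in DREADD Pilo and 5.63 CPM in CAG-GFP Sham and did not pass. Endogenous mouse Chrm4 had 0, 0.180 and 0 CPM in DREADD Pilo and no count in CAG-GFP Sham and was not tested. It encodes the receptor type on which hM4Di is built, and whether its counts would include reads of hM4Di is not known. None of 22 glutamate receptor genes, 34 voltage-gated and HCN channel genes or 27 synaptic vesicle genes tested passed, with medians of -0.25, 0.18 and -0.46. With the library set as a covariate the medians were 1.24, 1.54 and 0.845, so those of the glutamate receptor and vesicle genes changed sign, and again none passed.

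Immediate early genes, which neurons and glia switch on within minutes of stimulation, also gave no call among 25 tested, with a median of 1.80. Atf3, a stress-induced factor, had 810, 512 and 209 CPM in DREADD Pilo, against 72.7, 123 and 27.8 CPM in CAG-GFP Sham (log2 fold change 2.77 ± 0.77 SE, adjusted p = 0.152). Ier3 had 183, 176 and 118 CPM in DREADD Pilo, against 21.1, 20.8 and 5.14 CPM in CAG-GFP Sham (adjusted p = 0.139). Those groups did not overlap, as for 10 of the 25 genes (19.8% of all genes tested lay higher without overlap). Fos had 873, 2155 and 458 CPM in DREADD Pilo, against 1387, 824 and 996 CPM in CAG-GFP Sham, and its groups overlapped. In the fit of only the 6 libraries 5 of 22 members were higher, where 8.35% of all genes were. Among 25 late activity-regulated genes none passed, with a median of 0.89. Dusp14, a MAP kinase phosphatase, had the smallest p of these, with 22.6, 37.6 and 49.7 CPM in DREADD Pilo, against 3.28, 4.44 and 0.838 CPM in CAG-GFP Sham (adjusted p = 0.0788).

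Genes of ribosomes and energy supply had low levels in DREADD Pilo without passing the test. All 28 cytosolic ribosomal protein genes tested lay lower in every DREADD Pilo library than in any CAG-GFP Sham library, where 14.9% of all genes did so. Their median was -4.60 and none was called. Rpl23 had 20.7, 12.3 and 19.8 CPM in DREADD Pilo, against 370, 350 and 489 CPM in CAG-GFP Sham (log2 fold change -4.51 ± 0.89 SE, adjusted p = 0.0616). With the library set as a covariate the list median was -0.31, and in the fit of only the 6 libraries 23 of the 28 were lower, where 7.02% of all genes were. Over all 92 protein-coding ribosomal protein genes the summed level was 1278, 1748 and 3337 CPM in DREADD Pilo, against 28788, 27411 and 34575 CPM in CAG-GFP Sham. The 257 pseudogenes named after them summed to 2401, 1601 and 3904 CPM in DREADD Pilo, against 76.0, 77.4 and 118 CPM in CAG-GFP Sham. Genes were thus low and their pseudogenes high in the same libraries, and the other set 2 libraries showed the same pattern.

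**Figure D4:**
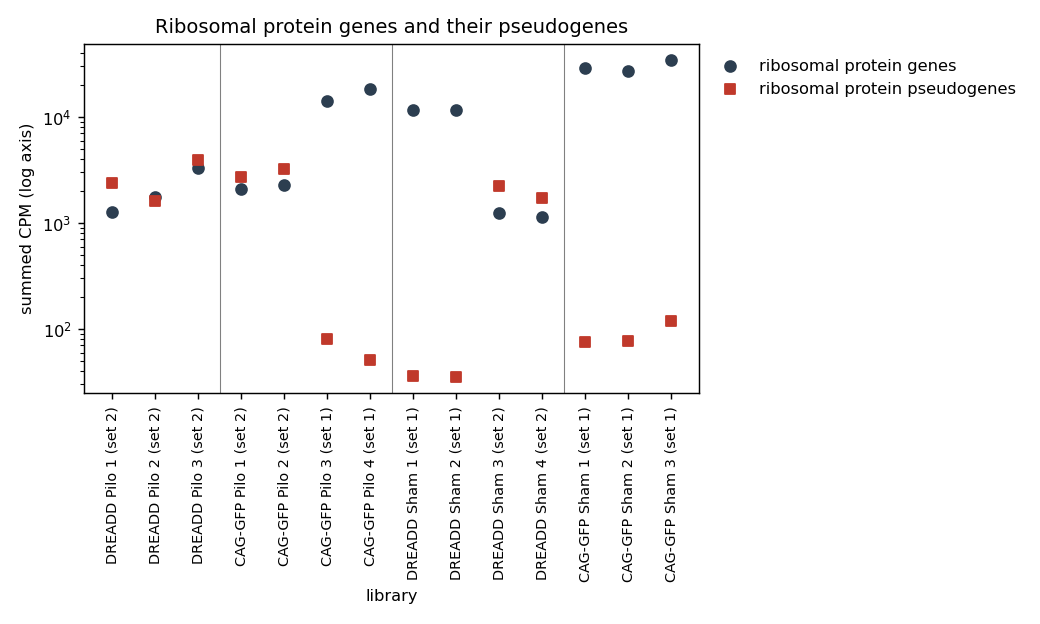
Summed CPM (log axis) of 92 ribosomal protein genes (circles) and 257 ribosomal protein pseudogenes (squares) in all 14 libraries, with the library set in brackets. In the set 2 libraries, which hold all of DREADD Pilo, the symbols lie close together, and in the set 1 libraries, which hold all of CAG-GFP Sham, the genes lie far above the pseudogenes.

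The same pattern appeared in single pairs, chosen after their values were seen. Cd63, a tetraspanin of late endosomes, had 8.60, 50.9 and 97.5 CPM in DREADD Pilo, against 2710, 2546 and 2887 CPM in CAG-GFP Sham. Its pseudogene Cd63-ps had 2213, 1436 and 3748 CPM in DREADD Pilo and no count in CAG-GFP Sham. Oaz1, the inhibitor of polyamine synthesis, had 7.16, 11.1 and 14.6 CPM in DREADD Pilo, against 422, 332 and 389 CPM in CAG-GFP Sham, while Oaz1-ps had 1072, 674 and 934 CPM in DREADD Pilo, against 0, 0.0987 and 0 CPM in CAG-GFP Sham. Of 5532 processed pseudogenes in the table, 350 had no count in CAG-GFP Sham and at least 5 CPM in each DREADD Pilo library. Nuclear genes of oxidative phosphorylation had a median of -1.97 over 32 tested, with none called, and a median of -0.31 with the library set as a covariate. Without DREADD Pilo 3 that median was -3.71 and 3 members were lower, beside 0.432% of all genes. Sdhb, a subunit of succinate dehydrogenase, had 36, 42.6 and 116 CPM in DREADD Pilo, against 1214, 1028 and 1145 CPM in CAG-GFP Sham (adjusted p = 0.148).

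Cholesterol synthesis genes were mostly lower without a call, with 20 of 22 negative and a median of -1.15 (-1.42 with the library set as a covariate). Idi1, which isomerises the isoprenoid building block, had 5.57, 2.47 and 2.45 CPM in DREADD Pilo, against 202, 238 and 286 CPM in CAG-GFP Sham (log2 fold change -6.11 ± 1.43 SE, adjusted p = 0.111). Fdft1, squalene synthase, had 47.1, 48.2 and 58.4 CPM in DREADD Pilo, against 355, 386 and 329 CPM in CAG-GFP Sham (log2 fold change -2.80 ± 0.62 SE, adjusted p = 0.0950). In the fit of only the 6 libraries 8 of the 22 were lower, beside 7.02% of all genes, and none was higher, beside 8.35%. Among 23 genes of p53 and the integrated stress response none passed, with a median of 1.55. Atf4, the main factor of that response, had 209, 229 and 232 CPM in DREADD Pilo, against 19.1, 26.9 and 57.4 CPM in CAG-GFP Sham (adjusted p = 0.134).

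**Figure D5:**
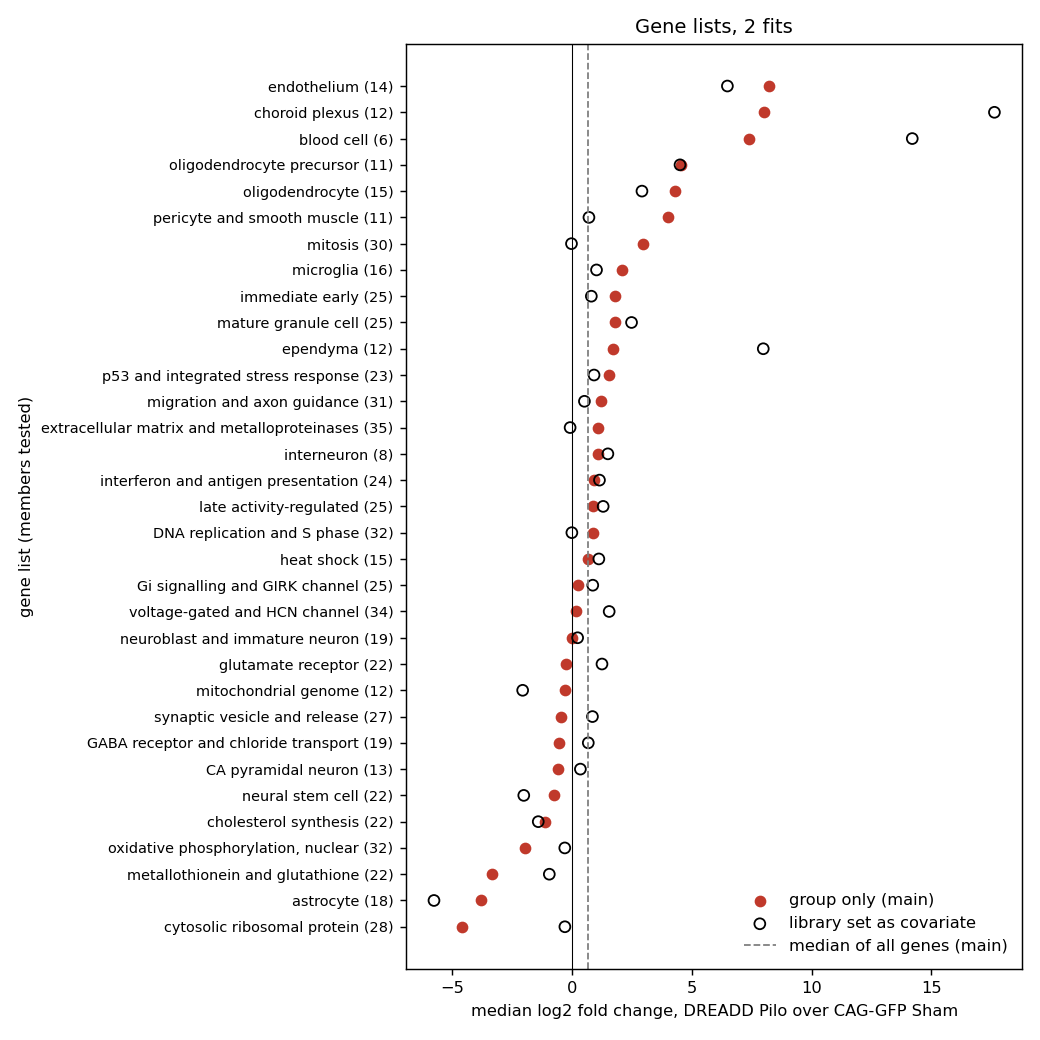
Median log2 fold change of DREADD Pilo over CAG-GFP Sham for 33 gene lists, from the fit of the groups alone (red) and with the library set as a covariate (open circles). The dashed line is the median of all genes, 0.66. The ribosomal protein median is -4.60 in the first fit and -0.31 in the second, and the astrocyte median is -3.79 and -5.77.

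Vascular and neuronal lists gave no call either, apart from Cspg4, which the pericyte list shares with the precursors. All 14 endothelial genes had positive fold changes, with a median of 8.20, or 7.41 with the 5 members without counts in CAG-GFP Sham set to 3 counts. Their summed level was 215, 2775 and 776 CPM in DREADD Pilo, against 31.5 to 107 CPM in CAG-GFP Sham. Flt1, a receptor for vascular endothelial growth factor, had 19.2, 250 and 22.6 CPM in DREADD Pilo and no count in CAG-GFP Sham (adjusted p = 0.173). DREADD Pilo 2 was the highest for both, and its blood cell sum of 6637 CPM was also the highest, against 12 to 36.8 CPM in CAG-GFP Sham. Of 25 mature granule cell genes none passed, with a median of 1.79. Ncald, a neuronal calcium sensor, had 263, 192 and 49.4 CPM in DREADD Pilo, against 19.0, 19.2 and 26.4 CPM in CAG-GFP Sham (log2 fold change 2.97 ± 0.65 SE, adjusted p = 0.0927). The 19 neuroblast genes tested had a median of 0.00 and no call. Microglia genes had a median of 2.09 over 16 tested and no call, with DREADD Pilo 3 far below the other libraries in their sum.

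Neither Rrm2 nor Timp3 passed the test. Rrm2 had 76.6, 0 and 0.892 CPM in DREADD Pilo, against 1.99, 4.64 and 6.66 CPM in CAG-GFP Sham (log2 fold change 2.54 ± 1.91 SE, adjusted p = 0.518). The positive value rested on DREADD Pilo 1, and without it the log2 fold change was -3.41. Timp3 had 63.5, 406 and 656 CPM in DREADD Pilo, against 179, 173 and 177 CPM in CAG-GFP Sham (log2 fold change 1.09 ± 0.82 SE, adjusted p = 0.522). DREADD Pilo 1 lay below and the others above the CAG-GFP Sham libraries. Of 32 replication and S phase genes and 30 mitosis genes tested none passed, with medians of 0.87 and 2.97, the second being 2.32 with the 7 members without counts in CAG-GFP Sham set to 3 counts. Their medians were -0.0145 and -0.0305 with the library set as a covariate, also without a call. Pcna, the replication clamp, had 27.6, 37.0 and 15.9 CPM in DREADD Pilo, against 139, 176 and 109 CPM in CAG-GFP Sham (adjusted p = 0.202).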

How the data were processed

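The authors deposited raw counts per gene, whole numbers without normalization, for 14 libraries of SMART-Seq v4 cDNA from polyadenylated RNA. Bowtie2, featureCounts, Subread, R 4.1.1, edgeR and the build hg38 are listed, per the submitters' processing notes, with no role or order. The table's identifiers are those of mouse Ensembl genes, which a human build cannot give. Which annotation release was used, with which strand setting, and how reads with several matches were treated is not given in the sources used here. Names and positions came from GENCODE M21 (GRCm38), which matched 42462 identifiers (98%). Promoter sequences are from RefSeq (GRCm38.p6). The 4 genes looked up, Hspa1a, Hspa1b, Mt1 and Mt2, all matched by symbol, and the windows of Mt1 and Mt2 are not shown.

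Differences were tested on these counts by edgeR 4.0.16 under R 4.3.3 (TMM, filterByExpr, quasi-likelihood F test, 1 fit of 14 libraries, Benjamini-Hochberg threshold 0.05), a procedure tested on simulated data. The biological coefficient of variation was 1.16 in DREADD Pilo, 1.01 in CAG-GFP Sham and 1.47 over the 14 libraries. It was 1.81 in CAG-GFP Pilo and 1.57 in DREADD Sham, the groups that hold libraries of both sets and enter the same fit. CPM were computed from library totals times TMM factors. A group without counts was set to 3 counts over the group for a bound, which compares the mean of the other group and not each library. No library pair of a group agreed within sampling noise. The 17 alternatives used RLE factors, DESeq2 1.42.0, limma 3.58.1 voom, other filters, fewer libraries, the library set and the replicate number.

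Genes were named by a rule: Rrm2 and Timp3, the 10 largest rises and 10 largest falls among called genes with at least 5 CPM in the higher group, no overlap and no predicted name, up to 3 called members of each of 33 lists, and otherwise up to 2 members with the smallest p. A gene that the rule chose is not reported here. Names outside it were chosen after their values were seen. The comparison, members and lists were chosen with earlier results of these data known.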

Additional observations from a re-analysis of the deposited data

How the results depend on the processing

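Against 42 genes called in DREADD Pilo against CAG-GFP Sham, DESeq2 called 2670, limma voom 1005, the fit of only the 6 libraries 2407, and the fit with CAG-GFP Sham summed to 1 sample 0 (675 at an unadjusted p under 0.05). The count was 31 with RLE factors, 54 with no filter, 41 with a stricter filter, 57 with protein-coding genes only and 40 with the library set as a covariate. Leaving out 1 library gave 4 to 152 calls in the fit of the remaining 13 libraries, and without DREADD Pilo replicate 3 in a fit of the other 5 libraries alone, an alternative chosen after seeing the data, 4197. The cause of these differences was not tested. With the replicate number as a replicate block 9 genes were called (1 higher, 8 lower). Deviations of same-numbered libraries correlated at 0.00709 to 0.0231, so the numbers were not taken as pairs. Of the other comparisons, DESeq2 called 167 genes between DREADD Pilo and CAG-GFP Pilo, 153 between DREADD Pilo and DREADD Sham, 2130 between CAG-GFP Pilo and CAG-GFP Sham and 2600 between DREADD Sham and CAG-GFP Sham. For the last 2, limma voom called 777 and 858, and edgeR within library set 1 called 471 and 530. These settings for the other comparisons were added after seeing the data. The log2 fold change of Rrm2 turned to -1.57 with limma voom and -3.41 without DREADD Pilo replicate 1 (-3.41 to 3.07 over libraries left out in turn), and that of Timp3 to -0.088 with the library set as a covariate. Depth limits genes with few counts. Totals were lower in DREADD Pilo, but 17432 to 18844 genes had a count there, against 14599 to 15462 in CAG-GFP Sham. The genes given a bound had no count in CAG-GFP Sham.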
